A study of Mus musculus with 26 samples.

Results

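The genes described here are 37 markers of liver cells other than hepatocytes, out of 22322 gene symbols in the deposited RNA-seq tables of mouse liver. They were taken as a list of names. The list holds 11 Kupffer cell markers (Clec4f, Cd5l, Vsig4, Marco, Timd4, Cd163, Cd68, Csf1r, C1qa, C1qb and C1qc) and 10 endothelial markers (Stab1, Stab2, Pecam1, Cdh5, Kdr, Tek, Eng, Lyve1, Clec4g and Fcgr2b). It also holds 11 markers of stellate cells or fibroblasts (Lrat, Reln, Dcn, Des, Col1a1, Col1a2, Col3a1, Pdgfrb, Hand2, Colec11 and Bgn) and 5 cholangiocyte markers (Krt7, Krt19, Epcam, Sox9 and Spp1). The names were chosen by cell class, with earlier results of these data known, and all 37 were found.

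Whole livers of 8-week-old mice were sampled at CT0, the circadian time at which the lights would have come on, and at CT12. The mice had lived in a cycle of 12 h of light and 12 h of dark and had then spent their last 2 days in darkness. In the Bmal1 experiment, mice with a deletion of the clock gene Bmal1 restricted to the liver were set beside wild-type mice of strain C57BL/6, with 3 livers for each genotype and time. In the Nr1d1 experiment, mice carrying a knockout of Nr1d1, which is not described as tissue-restricted, were set beside C57BL/6 mice, with 2 livers for each genotype and time. The driver of the liver deletion, the allele of either knockout and the sex of the mice were not stated in the labels. They say neither which liver cells kept Bmal1 nor whether livers were perfused. The p-values below measure the spread between the libraries of these livers, counting error included. In the Nr1d1 experiment this is the spread left after differences between the replicate numbers were removed. No other source of error is covered.

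Liver tissue is mostly hepatocytes by mass, and these 4 cell classes are among its other resident cells, beside lymphocytes and dendritic cells. Kupffer cells are the macrophages of the sinusoids and clear particles and opsonized material from portal blood. Sinusoidal endothelial cells line the sinusoids and scavenge through stabilins and other receptors, stellate cells store vitamin A and can turn into the main matrix-producing cells of the injured liver, and cholangiocytes line the bile ducts. BMAL1 activates transcription at E-boxes, and REV-ERBα, the product of Nr1d1, represses transcription at its own response elements. In RNA from whole tissue, fewer cells of a type and less RNA per cell cannot be told apart.

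The RNA-seq values are RPKM, which divide the reads of a transcript by its length and by the library's depth. Levels of different genes also depend on the transcript that stands for each gene, here the best expressed one, which can be short. Differences are given on the log2(RPKM + 0.5) scale, which understates the change of genes with low values, and a gene is said to have risen or fallen only where limma's adjusted p was under 0.05 over all tested genes. Of the 37 markers, 36 passed the filter of a mean RPKM of at least 0.5 in the Bmal1 experiment, and all 37 passed it in the Nr1d1 experiment. The marker left out was the keratin gene Krt7, at 0 to 1.32 RPKM. Depth was estimated by finding the whole reads behind the RPKM values, which are known up to a factor shared by the libraries of an experiment. They summed to 4785740 to 7910723 reads per library in the Bmal1 experiment and 6548671 to 45416502 in the Nr1d1 experiment. These sums are partial: they cover 1 transcript per symbol and leave out symbols with more than 50000 reads in a library or whose reads were not recovered. In the Bmal1 experiment the median over libraries was 100 to 1495 reads for a Kupffer marker, 95 to 2302 for an endothelial marker and 40.5 to 3027 for a stellate marker. Among the cholangiocyte markers it was 3 reads for Krt7, 13.5 for Krt19, 15 for Epcam and 48 for Sox9, against 748 for Spp1, so that counting error is large for all of that set but Spp1. Stab1 had a mean of 14.9 RPKM from a median of 95 reads, and Stab2 19.2 RPKM from 2302 reads. The chosen transcripts thus differ widely in length, and rankings of genes by level are approximate.

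The targeted genes do not separate the genotypes in a simple way. At CT0 Arntl, the symbol of the Bmal1 gene, ranged from 15.7 to 16.3 RPKM in controls and from 5.73 to 7.45 in livers labelled knockout. At CT12 these ranges were 0.68 to 1.26 and 3.59 to 4.37, so that the order was turned round. Nr1d1 stood at 0.374 and 22.0 RPKM in the control libraries of replicates 1 and 2 at CT0 and at 6.10 and 32.9 in the libraries labelled knockout. At CT12 it stood at 3.45 and 33.4 RPKM in the control libraries and 11.1 and 28.4 in those labelled knockout, so that it was higher in 3 of the 4 libraries labelled Nr1d1 knockout than in the control library of the same time and replicate. These values are sums over a transcript and do not show whether a deleted part is missing, and knockout is used below only as the label of a library. Albumin made up 6.10 to 8.06% of the RPKM sum in the control livers of the Bmal1 experiment and 3.21 to 4.74% in livers labelled knockout.

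Promoter windows were available from RefSeq (build GRCm38.p6, 250 bases before to 50 after a gene's start) for 27 of the 37 markers, in 28 windows. They were searched on both strands for CACGTG, the E-box bound by BMAL1, and AGGTCA, the core of the REV-ERB element. Both motifs are 6 letters long and neither contains the other. CACGTG was found in 2 of the 28 marker windows (7.14%), those of Epcam and Reln, against 7.15% of 32851 windows of all genes. AGGTCA was found in 6 (21.4%), those of C1qc, Clec4f, Fcgr2b, Krt7, Stab2 and Timd4, against 16.3% of all windows. A match is a description of the letters and not a bound site. The 250 bases before each of the 2 listed starts of Spp1 are shown because Spp1 was the marker that differed at both times in the Bmal1 experiment, and neither window holds a match. Reln and Clec4f are shown beside them as markers with a match, in capitals (Reln the E-box, Clec4f the REV-ERB core on the other strand). The Spp1 windows lie on the plus strand of chromosome 5 at chr5:104434861-104435110 and chr5:104435942-104436191. The Reln window lies on the minus strand at chr5:22344706-22344955 and the Clec4f window on the minus strand at chr6:83656117-83656366.
Spp1, first start: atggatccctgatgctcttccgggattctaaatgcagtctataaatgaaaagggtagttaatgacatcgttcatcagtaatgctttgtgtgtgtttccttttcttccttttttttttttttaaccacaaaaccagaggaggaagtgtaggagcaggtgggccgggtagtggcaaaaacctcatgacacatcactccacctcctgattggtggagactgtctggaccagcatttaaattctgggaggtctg
Spp1, second start: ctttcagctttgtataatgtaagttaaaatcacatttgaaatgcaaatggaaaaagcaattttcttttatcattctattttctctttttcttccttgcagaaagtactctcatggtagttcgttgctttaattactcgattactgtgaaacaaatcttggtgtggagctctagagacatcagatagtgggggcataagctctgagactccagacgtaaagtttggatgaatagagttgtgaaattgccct
Reln: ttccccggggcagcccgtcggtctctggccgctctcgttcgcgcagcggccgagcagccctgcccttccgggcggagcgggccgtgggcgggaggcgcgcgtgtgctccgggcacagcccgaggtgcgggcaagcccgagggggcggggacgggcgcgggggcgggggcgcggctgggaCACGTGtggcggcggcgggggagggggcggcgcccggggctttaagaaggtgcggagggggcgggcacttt
Clec4f: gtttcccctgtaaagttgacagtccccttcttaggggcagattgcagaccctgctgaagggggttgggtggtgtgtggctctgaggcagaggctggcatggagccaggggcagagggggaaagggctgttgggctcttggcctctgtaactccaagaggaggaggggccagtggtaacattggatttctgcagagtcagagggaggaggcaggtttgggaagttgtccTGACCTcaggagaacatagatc

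Kupffer cell markers were among the more abundant of the 37. In the control livers of the Bmal1 experiment the C-type lectin receptor gene Clec4f stood at 54.8, 47.7 and 41.0 RPKM at CT0 (replicates 1, 2 and 3) and at 35.5, 26.4 and 25.9 at CT12. In livers labelled knockout it stood at 57.5, 48.3 and 35.3 RPKM at CT0 and at 25.3, 35.9 and 46.7 at CT12. The control groups did not overlap, whereas the groups labelled knockout did. Cd5l, which encodes a secreted macrophage protein also called AIM, stood at 52.7, 44.0 and 37.5 RPKM in control livers at CT0, against 41.4, 26.5 and 26.9 at CT12. Next in level came C1qa and C1qb, which encode chains of complement component C1q. C1qa stood at 35.7, 30.4 and 29.2 RPKM in control livers at CT0 and at 25.4, 20.7 and 15.9 at CT12. C1qb stood at 37.8, 29.3 and 28.2 RPKM at CT0 and at 21.6, 19.2 and 17.3 at CT12. Both were lower in every CT12 library than in any CT0 library of the control livers. The scavenger receptor genes Cd163 and Marco and the phosphatidylserine receptor gene Timd4 were the scarcest of the set, with means of 5.76, 3.69 and 3.92 RPKM over the 12 libraries. Between these extremes lay the growth factor receptor gene Csf1r (24.5), C1qc (21.7), Vsig4 (21.1) and the lysosomal protein gene Cd68 (6.52), also as mean RPKM.

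Endothelial markers ranged from 3.83 RPKM (Lyve1, the hyaluronan receptor gene) to 35.9 RPKM (Clec4g, a lectin gene of the sinusoidal endothelium) as means over the 12 libraries of the Bmal1 experiment. Clec4g stood at 45.1, 43.3 and 31.3 RPKM in control livers at CT0 and at 29.2, 21.1 and 28.4 at CT12. Eng, which encodes the TGF-beta co-receptor endoglin, stood at 25.9, 31.8 and 23.3 RPKM at CT0 and at 15.4, 19.6 and 15.2 at CT12. Stab2, the gene of the clearance receptor stabilin-2, stood at 20.8, 22.5 and 18.4 RPKM at CT0 and at 14.9, 13.3 and 15.2 at CT12. In these 3 genes the control CT12 libraries lay below every control CT0 library. Fcgr2b, an Fc receptor gene, was different: its 25.7, 22.5 and 19.1 RPKM at CT0 overlapped the 21.1, 17.9 and 25.0 RPKM at CT12. The other endothelial genes had means of 14.9 (the stabilin-1 gene Stab1), 13.6 (the VEGF receptor gene Kdr), 7.38 (Cdh5), 7.05 (Pecam1) and 3.86 RPKM (Tek).

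Among the markers of stellate cells or fibroblasts the proteoglycan gene Dcn had the highest RPKM of all 37, with a mean of 101 over the 12 libraries. It stood at 98.9, 123 and 110 RPKM in control livers at CT0 and at 81.0, 67.1 and 70.2 at CT12. Bgn, a second small proteoglycan gene, stood at 27.9, 35.6 and 31.2 RPKM at CT0 and at 21.6, 23.4 and 18.6 at CT12. All CT12 values of these genes lay below the CT0 values. Reln, which encodes the secreted glycoprotein reelin, stood at 15.4, 24.0 and 20.6 RPKM at CT0 and at 15.0, 15.3 and 13.2 at CT12. The fibrillar collagen genes Col1a1, Col1a2 and Col3a1 were scarcer and more variable: Col1a1 stood at 0.509, 2.81 and 2.02 RPKM in the 3 control livers at CT0. Means over the 12 libraries were 12.7 RPKM for Col3a1, 5.41 for Col1a2 and 1.32 for Col1a1, and 0.996 for the intermediate filament gene Des. Replicate 1 of that group was the lowest of the 3 for 10 of the 11 markers of this set.

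Spp1, which encodes the secreted phosphoprotein osteopontin, set itself apart from the other cholangiocyte markers by its level. Its mean over the 12 libraries was 77.7 RPKM, against 0.712 for the keratin gene Krt19, 0.674 for the transcription factor gene Sox9 and 0.652 for Epcam, an epithelial adhesion gene. Krt19 stood at 0.369, 0.867 and 1.09 RPKM in control livers at CT0 and at 0.315, 0.907 and 0.0946 at CT12. Epcam stood at 0.311, 1.08 and 0.406 RPKM at CT0 and at 0.274, 0.634 and 0.219 at CT12. Both groups of each gene overlapped. Spp1 is also known to be made by activated macrophages and by other liver cells, and Sox9 by some hepatocytes near the bile ducts, so that neither name stands for bile duct cells alone.

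In control livers of the Bmal1 experiment, most markers of all 4 cell classes were lower at CT12 than at CT0, and 8 of 36 fell: Pdgfrb, Dcn, Bgn and Colec11 of the stellate set, Cdh5 and Tek of the endothelial set, C1qb of the Kupffer set and Sox9 of the cholangiocyte set. None rose. By limma, 10.8% of the 11439 tested genes were called in this comparison, and 7.43% of the tested genes were called lower. The log2 difference was below 0 for 35 of 36 markers, with a median of -0.57, against 61.9% of all genes and a median of -0.08. In 23 of 36 markers every CT12 library was below every CT0 library, against 22.8% of all tested genes. At an unadjusted p under 0.05 by limma the count was 23 of 36, but the share of all genes at that threshold was not computed.

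**Figure D1:**
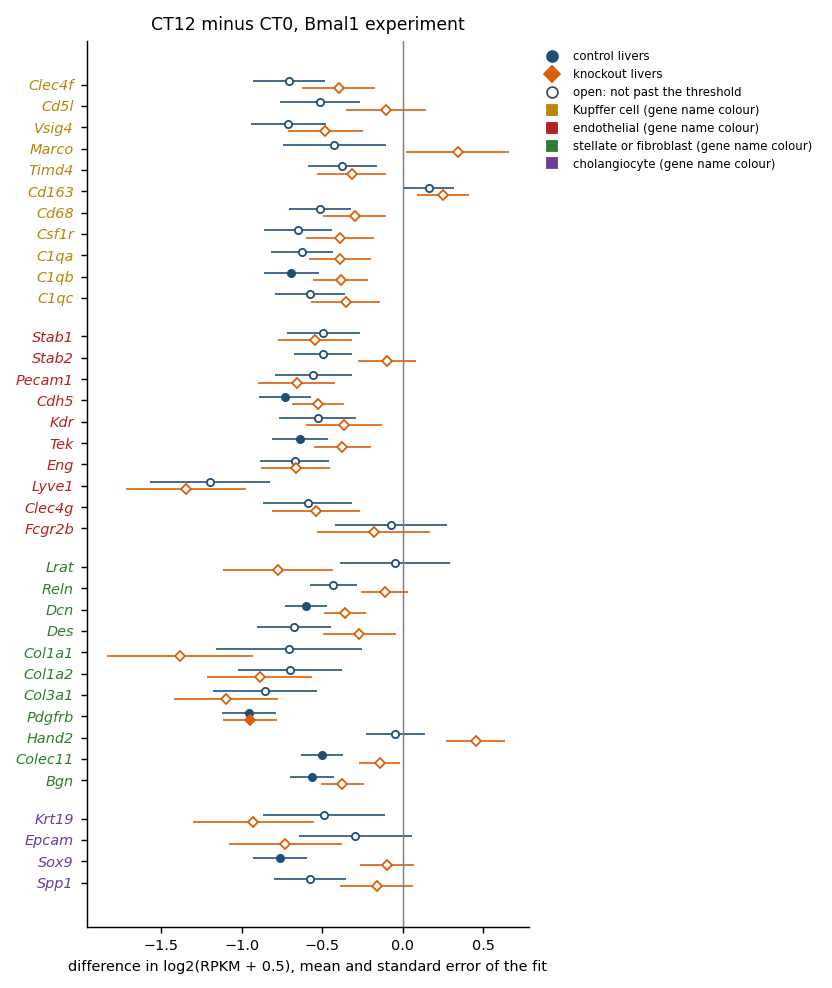
Difference between CT12 and CT0 (x axis, log2(RPKM + 0.5), point and standard error of the fit) for the 36 tested markers (y axis) in control livers (circles) and livers labelled knockout (diamonds) of the Bmal1 experiment. Filled points passed the threshold: 8 in control livers and 1 in livers labelled knockout, while 35 and 33 of 36 points lie left of 0.

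The set medians were close to each other at -0.57 for Kupffer markers, -0.57 for endothelial markers, -0.60 for stellate markers and -0.53 for the 4 tested cholangiocyte markers. Pdgfrb, the gene of a growth factor receptor of stellate cells and other mural cells, stood at 3.07, 3.66 and 4.05 RPKM at CT0 and at 1.42, 2.10 and 1.36 at CT12. Its log2 difference of -0.96 ± 0.17 (SE) was the largest among the called markers (adjusted p = 0.00402 by limma). The endothelial cadherin gene Cdh5 stood at 9.48, 9.34 and 7.71 RPKM at CT0 and at 5.18, 5.26 and 4.90 at CT12, a log2 difference of -0.73 ± 0.16 (adjusted p = 0.0148 by limma). Tek, which encodes the angiopoietin receptor TIE2, stood at 4.59, 4.67 and 4.56 RPKM at CT0 and at 2.58, 2.92 and 2.86 at CT12. All 3 CT12 libraries of Tek lay below all CT0 libraries, and its log2 difference was -0.64 ± 0.18 (adjusted p = 0.0388 by limma).

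Among the other falls, Dcn differed by -0.60 ± 0.13 (adjusted p = 0.0139) and Bgn by -0.56 ± 0.14 (adjusted p = 0.0224) by limma. Colec11, a soluble collectin gene, stood at 20.7, 25.0 and 21.3 RPKM at CT0 and at 16.2, 15.2 and 15.3 at CT12, a log2 difference of -0.50 ± 0.13 (adjusted p = 0.0295 by limma). C1qb differed by -0.69 ± 0.17 (adjusted p = 0.0238 by limma). Sox9 stood at 0.627, 0.725 and 0.859 RPKM at CT0 and at 0.210, 0.313 and 0.162 at CT12, a log2 difference of -0.76 ± 0.17 (adjusted p = 0.0145 by limma). Because Sox9 is scarce, its difference was larger on the recovered reads, where edgeR gave -1.60 (adjusted p = 0.00319).

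The most different Kupffer and endothelial markers did not pass the threshold. Vsig4, the gene of a complement receptor of Kupffer cells, differed by -0.71 ± 0.23 (adjusted p = 0.0724 by limma). Lyve1 differed by -1.20 ± 0.37 (adjusted p = 0.061 by limma), with 2.54, 6.05 and 8.35 RPKM at CT0 and 2.33, 2.14 and 1.46 at CT12. The CT0 libraries of Lyve1 were widely spread, with replicate 1 near the CT12 level. Cd163, a hemoglobin scavenger receptor gene of macrophages, was the only marker with a difference above 0 on the deposited scale (0.16 ± 0.16; 3 or 4 markers were above 0 under other scalings), at 5.92, 5.31 and 4.08 RPKM at CT0 and 6.85, 5.42 and 4.97 at CT12.

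Further genes of the same cell classes, listed separately from the 37, were also mostly lower at CT12 in control livers. Of 15 tested Kupffer or macrophage genes 3 fell, the heme oxygenase gene Hmox1 (-0.75), the NADPH oxidase subunit gene Cybb (-0.70) and the pore-forming protein gene Mpeg1 (-0.68), and the median was -0.64. Of 18 endothelial genes 5 fell, led by the transcription factor gene Sox18 (-0.90) and Oit3 (-0.89), and the median was -0.34. Of 18 stellate or mural genes 6 fell, led by Tagln (-1.58), a smooth muscle actin-binding protein gene, the nerve growth factor receptor gene Ngfr (-1.45), the basement membrane collagen gene Col4a1 (-1.15) and Sparc (-0.89), and the median was -0.53. The 7 further cholangiocyte genes had a median of -0.31. No gene of these 4 lists rose.

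Genes of blood cells moved with this comparison. Of 8 neutrophil genes 6 fell, with a median of -1.82, and their summed level was 32.6 to 116 RPKM at CT0 against 6.27 to 8.92 at CT12, with none at 0 in every library of a group. Of 5 tested erythroid genes 2 fell, with a median of -0.96, and their summed level was 160 to 380 RPKM at CT0 against 107 to 190 at CT12. The 11 hepatocyte genes had a median of -0.10, and 2 rose, Pck1 (1.33) and Cyp2e1 (0.72). The part of blood cell content in the markers' difference was not tested. The call also rested on single libraries: 1 of 36 markers (Pdgfrb) passed without replicate 3 of the control livers at CT12, 2 without replicate 2 and 4 without replicate 3 of the control livers at CT0. In these fits 3.67%, 3.84% and 4.20% of all tested genes were called lower. With only the 6 control libraries in the fit, 13 markers passed, where 9.89% of all genes were called and 6.63% of all genes were called lower.

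With the label Bmal1 knockout, Pdgfrb alone fell between CT0 and CT12 (1 of 36 markers), where 1.9% of all tested genes were called and 0.988% of all tested genes were called lower. It stood at 3.59, 3.39 and 4.66 RPKM at CT0 and at 1.64, 2.03 and 1.61 at CT12, a log2 difference of -0.95 ± 0.17 (adjusted p = 0.018 by limma), and was not called without replicate 3 at CT0 or replicate 1 at CT12. The log2 difference was below 0 for 33 of 36 markers, the exceptions being Marco, Cd163 and Hand2, with a median of -0.38, against 50.9% of all genes and a median of 0.00. In 10 of 36 markers every CT12 library was below every CT0 library, against 11.2% of all genes. In 7 markers this held in both genotypes, and in 33 the difference was below 0 in both. The shares of all genes were not computed for these joint counts, so they cannot be set against a background.

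The most different marker of each set did not pass the threshold by limma in livers labelled knockout. Col1a1 differed by -1.38 ± 0.45 (adjusted p = 0.129), with 2.04, 1.66 and 2.56 RPKM at CT0 and 0.760, 0.191 and 0.580 at CT12. Lyve1 differed by -1.35 ± 0.37 (adjusted p = 0.0859), Krt19 by -0.93 ± 0.38 (adjusted p = 0.21) and Vsig4 by -0.48 ± 0.23 (adjusted p = 0.283), all by limma. The set medians were -0.35 for Kupffer, -0.53 for endothelial, -0.37 for stellate and -0.45 for cholangiocyte markers. Of the separate lists, Hmox1 (-0.77), the endomucin gene Emcn (-0.87), Ngfr (-1.25), Tagln (-1.37) and Sparc (-0.83) fell here. Of the 8 neutrophil genes 5 fell, with a median of -2.11. The range of their summed level went from 106 to 230 RPKM at CT0 down to 18.5 to 47.6 RPKM at CT12. The 5 tested erythroid genes went the other way than in control livers, with a median of 0.31 and all 5 above 0, although none was called. The 11 hepatocyte genes had a median of 0.05, and 1 rose, Pck1 (2.03). The part of blood cells was not tested.

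The other 7 genes that fell in control livers had the same sign in livers labelled knockout without passing the threshold. Sox9 among them was nearly level, with a log2 difference of -0.10, and its lowest library was at CT0 (0.665 RPKM, against 0.708 at CT12). Cdh5 stood at 9.21, 10.1 and 8.34 RPKM at CT0 and at 4.54, 6.88 and 7.66 at CT12, and Tek at 4.27, 5.21 and 4.20 and at 2.28, 4.03 and 4.17 RPKM. Dcn stood at 112, 118 and 139 RPKM at CT0 and at 87.7, 86.8 and 114 at CT12. C1qb stood at 34.5, 31.2 and 24.2 RPKM at CT0 and at 18.2, 23.7 and 26.7 at CT12. Of these genes, Dcn and C1qb overlapped between the times, and in Cdh5 and Tek replicate 1 at CT12 was the lowest library. Bgn stood at 28.0, 30.9 and 37.7 RPKM at CT0 and at 21.6, 26.1 and 26.1 at CT12, without overlap. Colec11 stood at 21.2, 22.3 and 24.1 RPKM at CT0 and at 16.4, 21.1 and 24.2 at CT12, and the highest library of all 6 was at CT12.

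In livers labelled knockout at CT12 the Kupffer and endothelial markers were spread widely and in one order. Among the stellate markers replicate 1 was the lowest for 5 of 11 and replicate 3 the highest for 8 of 11. The cholangiocyte markers had another order, with replicate 1 the highest for 3 of 4 and replicate 3 the lowest for 3 of 4. For the endothelial and Kupffer markers, replicate 1 was the lowest of the 3 for 10 of 10 and 10 of 11, and replicate 3 was the highest for 10 of 10 and 9 of 11. Clec4g stood at 18.3, 32.6 and 47.6 RPKM and Fcgr2b at 9.66, 24.2 and 35.8 RPKM in replicates 1, 2 and 3. The summed level of the endothelial markers was 81.8, 142 and 191 RPKM. For comparison, it was 110 to 122 RPKM in control livers at CT12 and 177 to 187 RPKM in livers labelled knockout at CT0.

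**Figure D2:**
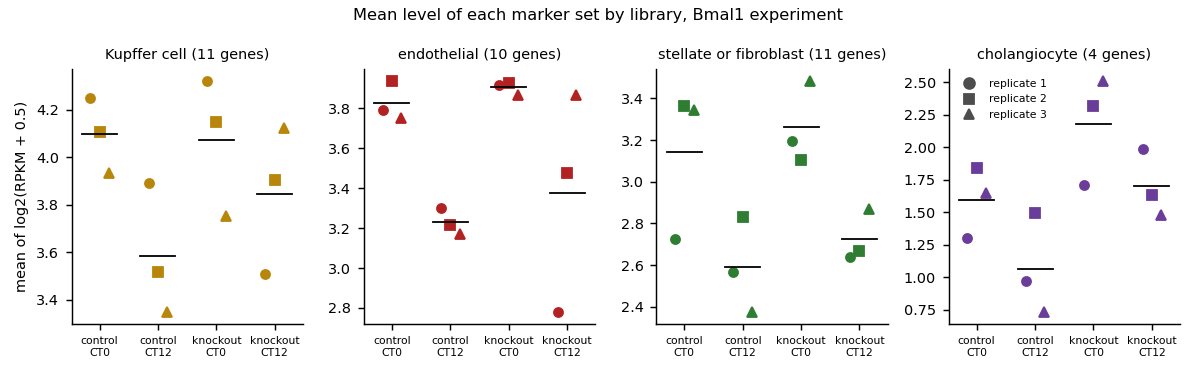
Mean of log2(RPKM + 0.5) over the tested markers of each set (y axis) in each of the 12 libraries of the Bmal1 experiment, by genotype and time (x axis), with a line at the group mean and a symbol for each replicate number. Endothelial markers in livers labelled knockout at CT12 spread from 2.78 in replicate 1 to 3.86 in replicate 3.

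Whether the time difference itself depended on genotype was tested with the interaction term. None of the 36 markers passed, where 1.31% of all genes were called by limma, and 1 had an unadjusted p under 0.05. edgeR on the recovered reads also called 0 and had 1 at an unadjusted p under 0.05. That gene was Sox9, whose CT12 minus CT0 difference was higher by 0.67 ± 0.24 in livers labelled knockout (adjusted p = 0.267 by limma). A difference of the markers' time course between genotypes was thus not shown.

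Between genotypes, Spp1 stood apart from the rest of the markers. At CT0 it stood at 46.0, 61.5 and 48.6 RPKM in control livers and at 90.7, 148 and 117 in livers labelled Bmal1 knockout. At CT12 it stood at 32.5, 47.7 and 26.5 RPKM in control livers and at 121, 106 and 87.0 in livers labelled knockout. The groups did not overlap at either time. Spp1 rose by 1.16 ± 0.22 on the log2 scale at CT0 (adjusted p = 0.0256) and by 1.58 ± 0.22 at CT12 (adjusted p = 0.000799) by limma. Neutrophil genes were also higher in livers labelled knockout at CT0, with log2 differences above 0 for 8 of 8 and a median of 1.36, although none was called. All 8 had an unadjusted p under 0.05 by limma, but the share of all genes at that threshold was not computed. Their summed level was 106 to 230 RPKM against 32.6 to 116 in control livers, which overlap. Their part in the difference of Spp1 was not tested. At CT0 Spp1 was the only one of 36 markers to pass, where 1.62% of all tested genes were called and 0.909% of all tested genes were called higher. It was also the only one without overlap, against 10.8% of all tested genes upward and 9.07% downward, so that the share of markers was below that of all genes. The files list 7 transcripts of Spp1, and in each the lowest library labelled knockout was above the highest control library, with log2 differences of 1.10 to 1.29 at CT0 and 1.53 to 1.69 at CT12. These transcripts share most of their reads and are not independent.

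**Figure D3:**
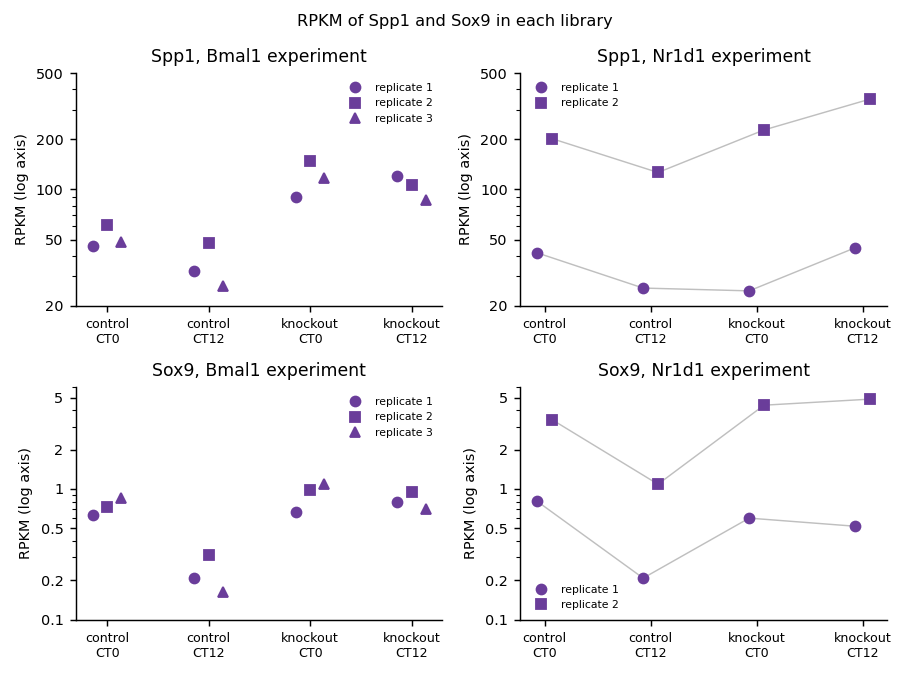
RPKM (y axis, log scale) of Spp1 (upper panels) and Sox9 (lower panels) in each library of the Bmal1 experiment (left) and the Nr1d1 experiment (right), by genotype and time. Lines join the libraries of one replicate number in the Nr1d1 experiment. In both experiments and all replicates the libraries labelled knockout at CT12 lie above the control library of the same number.

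The call for Spp1 at CT12 held under every alternative that was run. At CT0 it was lost when replicate 1 or 3 of the control livers or replicate 2 or 3 of the livers labelled knockout was left out, with log2 differences between 0.99 and 1.16, and when all 16629 genes above 0 were tested.

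Sox9 was the other marker to rise in livers labelled Bmal1 knockout at CT12. RPKM of Sox9 stood at 0.210, 0.313 and 0.162 in control livers and at 0.788, 0.950 and 0.708 in livers labelled knockout, with no overlap. The log2 difference was 0.85 ± 0.17 (adjusted p = 0.00706 by limma), and edgeR on the recovered reads gave 1.73 (adjusted p = 0.00173). At CT0 its 0.627, 0.725 and 0.859 RPKM in control livers overlapped the 0.665, 0.985 and 1.10 RPKM in livers labelled knockout. With both genes, 2 of 36 markers rose at CT12, where 9.68% of all genes were called and 6.46% of all genes were called higher. In 6 of 36 markers every library labelled knockout was above every control library, against 19.9% of all genes, so that the share of markers was near that of all genes.

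The tested keratin and adhesion markers of bile ducts were not called at CT0 or CT12. At CT0 all 4 tested cholangiocyte markers lay above 0 between genotypes, against 52.1% of all genes. Their differences ran from 0.19 for Sox9 to 1.16 for Spp1, with a median of 0.49 against 0.01 for all genes. At CT12 Krt19 stood at 0.616, 0.288 and 0.232 RPKM in livers labelled knockout, a log2 difference of -0.03 ± 0.38 from control livers. Epcam stood at 0.918, 0.259 and 0.287 RPKM, a difference of 0.14 ± 0.35. Among the further cholangiocyte genes, the polycystic kidney and hepatic disease gene Pkhd1 (0.57) rose at CT12. The pancreatic elastase gene Cela1 rose as well (1.78), while the other 5 acinar genes were not tested, with the enzyme genes Cpa1, Prss1, Pnlip and Ctrb1 at 0 in every library labelled knockout at CT12.

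**Figure D4:**
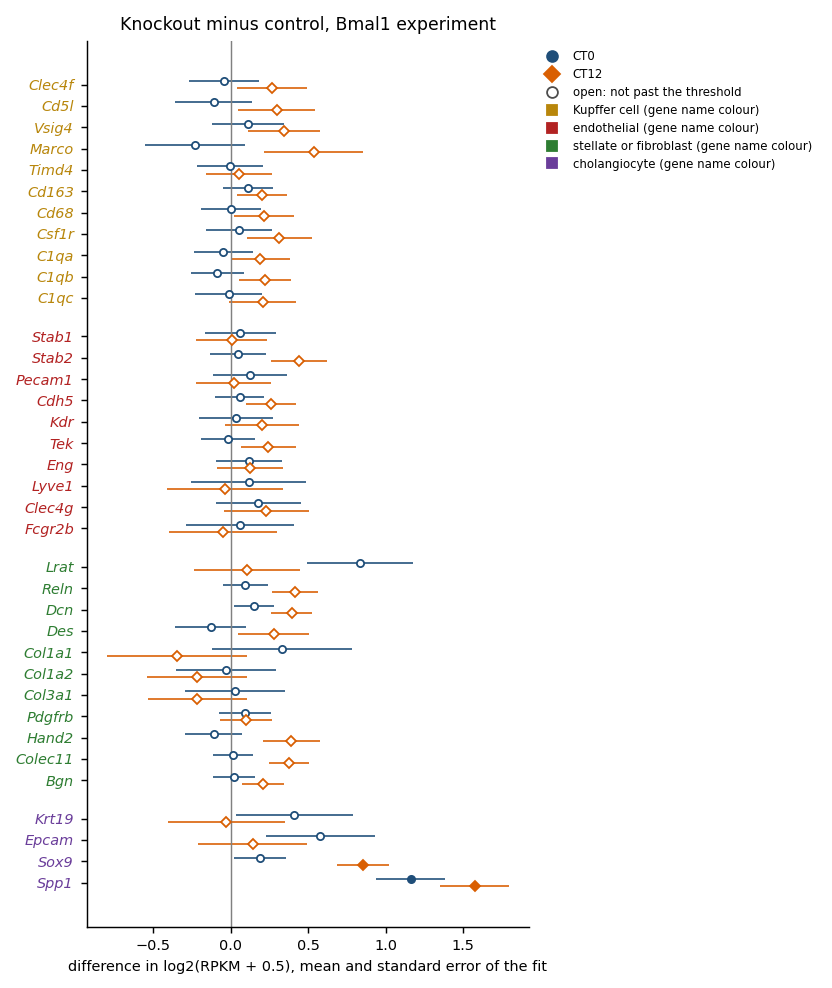
Difference between livers labelled Bmal1 knockout and control livers (x axis, log2(RPKM + 0.5), point and standard error of the fit) for the 36 tested markers (y axis) at CT0 (circles) and CT12 (diamonds). Filled points passed the threshold: Spp1 at both times and Sox9 at CT12.

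No marker of the other 3 cell classes was called between genotypes at CT0. The median was -0.01 for Kupffer, 0.06 for endothelial and 0.03 for stellate markers, against 0.01 for all genes. The largest differences in these sets were -0.23 ± 0.32 for Marco, 0.18 ± 0.27 for Clec4g and 0.83 ± 0.34 for Lrat, the retinol esterification enzyme gene of stellate cells (adjusted p = 0.826, 0.843 and 0.294 by limma). Lrat stood at 2.62, 6.45 and 6.26 RPKM in control livers and at 14.0, 5.17 and 9.57 in livers labelled knockout. The standard error of a marker's difference had a median of 0.22. A call needed a difference of several standard errors. Lrat, at 0.83 ± 0.34, was not called, so that sizeable differences could be missed as well as small ones.

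At CT12 the medians were 0.22 for Kupffer, 0.16 for endothelial and 0.21 for stellate markers, against 0.09 for all genes, and 30 of 36 markers were above 0, against 65.1% of all genes. This count was 25 to 29 under other scalings of the libraries. The largest differences were 0.54 ± 0.32 for Marco, 0.44 ± 0.18 for Stab2 and 0.41 ± 0.15 for Reln (adjusted p = 0.347, 0.158 and 0.105 by limma). Reln stood at 15.0, 15.3 and 13.2 RPKM in control livers and at 17.8, 19.4 and 21.4 in livers labelled knockout. Dcn, Hand2 and Colec11 were also without overlap, at log2 differences of 0.39, 0.39 and 0.37, and were not called. Without replicate 1 of the livers labelled knockout at CT12, the library with the lowest endothelial markers, 7 of 36 markers rose: Spp1, Sox9, Stab2, Kdr, Tek, Cdh5 and Colec11. In that fit 7.86% of all genes were called and 5.67% of all genes were called higher.

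Of the separate lists, Mpeg1 (0.90) and Hmox1 (0.50) rose at CT12 among 15 Kupffer or macrophage genes, and none of the 36 endothelial and stellate genes did. The neutrophil calgranulin genes S100a8 (1.90) and S100a9 (1.77) and the globin genes Hba-a2 (1.21) and Hbb-b2 (1.24) rose too. The summed neutrophil level was 18.5 to 47.6 RPKM in livers labelled knockout at CT12 and 6.27 to 8.92 in control livers, and the summed erythroid level was 246 to 307 against 107 to 190 RPKM. Alb, the albumin gene of hepatocytes, fell at CT0 (-0.93) as well as at CT12 (-1.05). No other of the 11 tested hepatocyte genes was called at either time. The median of these 11 genes was -0.22 at CT0, with 5 above 0, and 0.03 at CT12, with 6 above 0. The part of these genes' sources in the rise of Spp1 and Sox9 was not tested.

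In the Nr1d1 experiment no marker passed the threshold in any comparison. With the replicate number as a block, limma called 0% of 12738 tested genes between genotypes at CT0, 0.0393% at CT12, 0.353% between the times in control livers, 0.055% in livers labelled knockout and 0% for the interaction. At an unadjusted p under 0.05 the counts were 1, 6, 4, 11 and 5 of 37 markers in the same order. edgeR, run on the 30 markers whose reads could be recovered, called 1, Sox9 between the times in control livers (-1.94, adjusted p = 0.0455). In that comparison edgeR called 0.749% of 11477 genes. Its counts at an unadjusted p under 0.05 were 4, 7, 7, 7 and 5 markers in the same order. The shares of all genes at an unadjusted p were not computed for limma or edgeR. RPKM of a marker were mostly several-fold higher in replicate 2, the replicate described as paired-end. The RPKM sum over all symbols was higher there as well, at 2099302 to 2211054 against 588418 to 875424 in replicate 1. The replicates are therefore shown apart, with 1 library for each genotype and time and no test.

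Spp1 and Sox9 were higher in livers labelled Nr1d1 knockout at CT12 in both replicates. Spp1 stood at 25.5 RPKM in the control library and 44.6 in the library labelled knockout of replicate 1, and at 127 and 350 RPKM in those of replicate 2. Sox9 stood at 0.208 and 0.518 RPKM in replicate 1 and at 1.09 and 4.86 in replicate 2. The log2 differences over both replicates were 1.13 ± 0.26 for Spp1 (adjusted p = 0.486) and 1.14 ± 0.32 for Sox9 (adjusted p = 0.76 by limma), and neither passed. At CT0 the replicates disagreed in sign for both genes: Spp1 stood at 41.6 and 24.6 RPKM in replicate 1 and at 202 and 228 in replicate 2, control before knockout. Krt19 and Epcam were also higher at CT12 in both replicates, by 0.28 and 0.67 for Krt19 and by 0.26 and 0.99 for Epcam, while Krt7 had opposite signs (0.50 and -0.59). Whether these differences are the same as those of the Bmal1 experiment was not tested.

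Over all 4 sets at CT12, 16 of 37 markers were higher in the library labelled knockout in both replicates, against 31% of all genes, and 0 were lower in both, against 23.5%. By the fit over both replicates, the other large differences were 1.08 ± 0.40 for Marco (adjusted p = 1 by limma), 1.04 ± 0.22 for Lyve1 (adjusted p = 0.349) and 1.00 ± 0.39 for Col1a1 (adjusted p = 1). Marco stood at 6.47 and 13.7 RPKM in replicate 1 and at 13.1 and 29.3 in replicate 2. Lyve1 stood at 2.45 and 4.94 RPKM in replicate 1 and at 4.11 and 10.0 in replicate 2. Col1a1 differed mainly in replicate 2, at 7.89 and 27.7 RPKM, against 1.77 and 2.21 in replicate 1.

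At CT0 the sets did not move as one between genotypes. All 11 Kupffer markers were higher in the library labelled knockout of replicate 2, with a median log2 difference of 0.87, while in replicate 1 the median was 0.08. Cd5l stood at 22.0 and 23.4 RPKM in replicate 1 and at 81.3 and 204 in replicate 2, control before knockout, and its difference over both replicates was 0.70 ± 0.37 (adjusted p = 0.873 by limma). Blood cell genes differed in the same comparison. The 5 tested erythroid genes had a median of 1.26 and the 3 tested neutrophil genes one of 1.43, and the summed erythroid level was 1022 and 2869 RPKM in the control libraries and 1605 and 11066 in those labelled knockout. Their part was not tested. Medians in replicates 1 and 2 were -0.01 and -0.27 for endothelial, -0.11 and -0.04 for stellate and -0.25 and -0.37 for cholangiocyte markers, against -0.08 and -0.01 for all genes. The largest differences were -0.56 ± 0.33 for Tek, 0.47 ± 0.39 for Col1a1 and -0.56 ± 0.24 for Epcam (adjusted p = 0.873, 0.88 and 0.873 by limma). Over all sets 9 of 37 markers were higher in both replicates, against 17.8% of all genes, and 11 were lower in both, against 33.2%.

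Between the times in control livers of the Nr1d1 experiment, the replicates differed in sign for most endothelial and stellate markers. In replicate 1, 30 of 37 markers were higher at CT12, with medians of 0.68 for Kupffer, 0.39 for endothelial and 0.36 for stellate markers, against 0.20 for all genes. In replicate 2 the medians were 0.12, -0.64 and -0.25, against -0.04 for all genes, and all 10 endothelial markers were lower at CT12. The endothelial adhesion gene Pecam1 stood at 7.98 and 9.10 RPKM at CT0 and CT12 in replicate 1 and at 21.1 and 8.45 in replicate 2. Over all sets 13 markers were higher in both replicates, against 36.9% of all genes, and 7 were lower in both, against 15.5%.

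Sox9, Spp1, Epcam, Krt19, Lyve1 and Pdgfrb were among the 7 control markers lower at CT12 in both replicates, with Col3a1 as the seventh. Sox9 stood at 0.804 and 0.208 RPKM at CT0 and CT12 in replicate 1 and at 3.39 and 1.09 in replicate 2, a log2 difference of -1.09 ± 0.32 over both (adjusted p = 0.391 by limma). Lyve1 differed by -0.72 ± 0.22 (adjusted p = 0.392), Cd163 by 0.89 ± 0.33 (adjusted p = 0.538) and the stellate transcription factor gene Hand2 by 0.44 ± 0.21 (adjusted p = 0.66 by limma). Cd163 stood at 2.56 and 6.58 RPKM in replicate 1 and at 5.31 and 8.17 in replicate 2. It was thus higher at CT12 in both replicates.

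In livers labelled Nr1d1 knockout, 26 of 37 markers were higher at CT12 than at CT0 in both replicates, against 47% of all genes, and 0 were lower in both, against 8.78%. The median of all genes was itself 0.16 in this comparison, and scaling by TMM brought it to 0.03. Genes of other cells moved as well. The 11 hepatocyte genes had a median of 0.47, with 9 above 0, the 5 tested erythroid genes one of -0.91 and the 3 tested neutrophil genes one of -0.55, all below 0. None of these was called, and their part was not tested. Under TMM scaling 29 of 37 markers were above 0, against 36 before it, when 69.6% of all genes were above 0, and the Kupffer median changed from 0.14 to -0.03. With median-ratio scaling or quantile normalization 30 of 37 were above 0. All 10 endothelial markers were higher at CT12 in both replicates, with medians of 0.46 and 0.21, against 0.27 and 0.05 for all genes. The largest differences of each set were 1.51 ± 0.40 for Marco, 0.69 ± 0.22 for Lyve1, 0.93 ± 0.22 for Lrat (adjusted p = 0.285 each) and 0.73 ± 0.26 for Spp1 (adjusted p = 0.297 by limma). Marco, a scavenger receptor gene of macrophages, stood at 2.41 and 13.7 RPKM at CT0 and CT12 in replicate 1 and at 17.5 and 29.3 in replicate 2. Lrat stood at 1.88 and 3.92 RPKM in replicate 1 and at 1.71 and 3.82 in replicate 2. Marco alone was called by limma when only the libraries labelled knockout were fitted (adjusted p = 0.032), where 1.16% of 12738 genes were called.

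**Figure D5:**
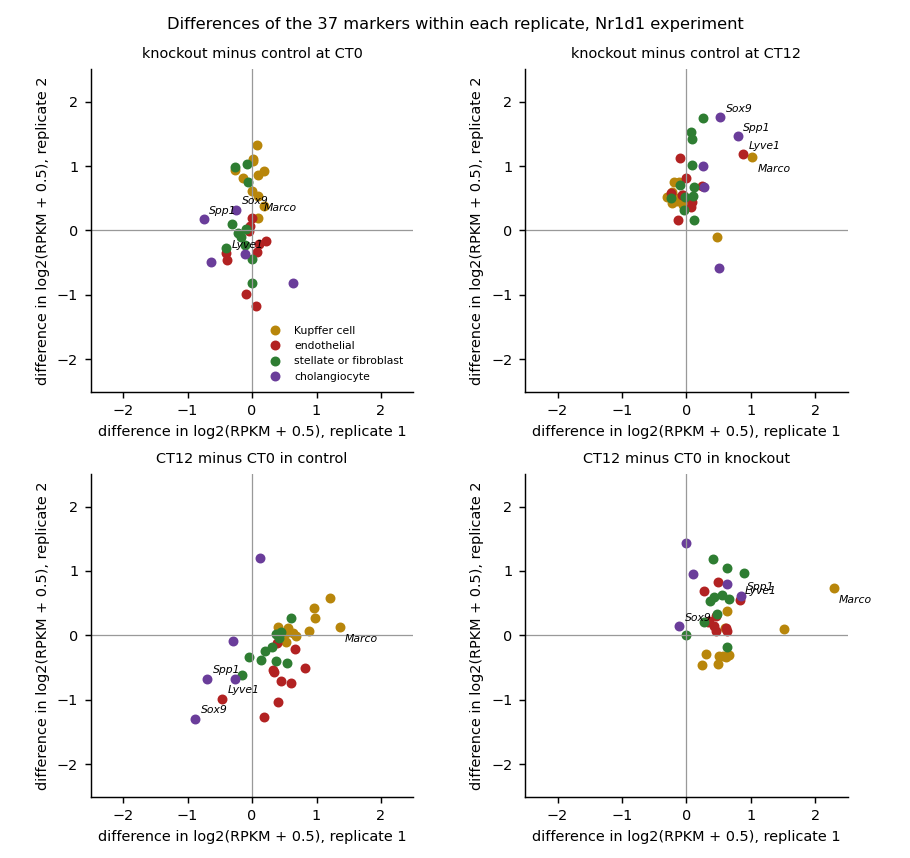
Differences in log2(RPKM + 0.5) of the 37 markers in replicate 1 (x axis) and replicate 2 (y axis) of the Nr1d1 experiment, in 4 comparisons, coloured by marker set, with 1 library for each genotype and time in a replicate. At CT12 no marker lies below 0 on both axes between genotypes, and between the times in control livers the endothelial markers lie below 0 in replicate 2 only, except Lyve1, which is below 0 in both.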

How the data were processed

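RNA-seq libraries (TruSeq v2) were made from 20 livers. The authors deposited RPKM values, 1 per Ensembl transcript and library. Per the submitters' processing notes, TopHat2, Bowtie and bedtools 2.19.1 and the mouse build mm9 were used, with Bowtie missing from the notes on Nr1d1 replicate 2. The annotation and what each tool did are not given in the labels. Deposited 4C read counts of 6 further libraries were not used for the markers.

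Each symbol was represented by its best expressed transcript. limma 3.58.1 (R 4.3.3; eBayes with a mean trend) was run on log2(RPKM + 0.5) where mean RPKM was at least 0.5, with 4 group means per experiment and Benjamini-Hochberg adjustment over all tested genes. The fit was tested on simulated data. Whole reads within a tolerance of 0.05 were recovered for 99.5% of 16629 symbols above 0 (Bmal1) and 93.3% of 18950 (Nr1d1), up to 50000 reads in a library, and were tested with edgeR 4.0.16 (glmQLFit and glmQLFTest). In the Nr1d1 experiment libraries of the same replicate number deviated together (correlations of 0.82 to 0.88) and replicate 2 alone is described as paired-end, so the number was a block. In the Bmal1 experiment these correlations were -0.06 to 0.12 and no block was used. Alternatives were other pseudocounts, filters and scalings, summed transcripts, edgeR, the block, only the compared groups, and leaving out each library.

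Values by library are given for up to 4 of the most abundant markers of a set and for markers called anywhere, and statistics for called markers and the most different marker of each set. Genes of other lists are named where called, and acinar genes for their level. Results of 1 gene of the further cholangiocyte list are not reported here. Some further markers' values were chosen after they were seen. Markers and lists were chosen with earlier results of these data known. Lists of adipocyte, acinar and lymphocyte genes had 1 tested gene each in the Bmal1 experiment, with differences between the times in control livers of -0.65, -0.86 and 0.03.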

Additional observations from a re-analysis of the deposited data

How the results depend on the processing

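In the 4 comparisons with a called marker, 54 of 68 recomputed counts stayed within 1.5 times the reported count. In the other 6 the reported count was 0, and 98 of 100 recomputed counts were 0. In those of the Nr1d1 experiment few or no genes were called at all, so that the counts say little about stability. For the interaction in the Bmal1 experiment, where 1.31% of all genes were called, the count stayed 0 under every alternative. None of the 12 called differences changed sign, whereas 171 of the 353 differences that were not called did so under at least 1 alternative. Named ones among them were Marco at CT0 (-0.59 to 0.06) and Krt19 (-0.31 to 0.31) and Epcam (-0.15 to 0.34) at CT12 between the Bmal1 genotypes, and Tek (-1.14 to 0.03) and Col1a1 (-0.01 to 0.96) at CT0 between the Nr1d1 genotypes. The calls of Spp1 and Sox9 at CT12 and of Pdgfrb in control livers held under every alternative in which the gene was tested. For CT12 against CT0 in control livers of the Bmal1 experiment, 8 markers were called, 13 with only the compared groups, and 1 to 9 when 1 library was left out. In livers labelled Bmal1 knockout the 1 call became 0 with only the compared groups and ranged from 0 to 1 when 1 library was left out. Between genotypes at CT0 the 1 call became 0 without a filter and ranged from 0 to 1 when 1 library was left out. At CT12 the 2 calls became 1 at a mean RPKM of at least 1, where Sox9 was not tested, and ranged from 2 to 7 when 1 library was left out. In the Nr1d1 experiment the count was 0 but for 1 by edgeR between the times in control livers and 1 in livers labelled knockout with only the compared groups; leaving out a library gave 0 to 0.

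With the replicate block the Bmal1 experiment gave 1 and 2 called markers between genotypes at CT0 and CT12, 8 and 1 between the times and 0 for the interaction. Without it the Nr1d1 experiment gave 0 throughout. Of all genes called between the times in control livers, 68.6% were lower as deposited and 50.1% after TMM scaling, and between genotypes at CT12 33.2% and 51.7%; 32 to 35 of 36 markers stayed below 0 between the times in control livers. A count within each Nr1d1 replicate could not be given with 1 library per group.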
